A study of Mus musculus with 4 samples.

Results

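The genes described here are the potassium channel genes of the pressure-loaded mouse heart: every gene whose symbol begins with Kcn, that has a probe set annotated to 1 gene symbol, and whose mean over the 4 arrays of the study reached 4.71 on the log2 scale. Of 92 Kcn genes with such a probe set, 72 reached that level and 20 did not. The measured mean chose the members, so the levels below are a description, and Kcnip2 was singled out in the rule with its difference already known. Each array profiled total RNA from a mouse heart taken 1 week after TAC, transverse aortic constriction, in which the aortic arch is narrowed so that the ventricle pumps against raised pressure. There was 1 array from a wild type heart and there were 3 from hearts of MAFbx KO mice. These lack MAFbx (atrogin-1, encoded by Fbxo32), a muscle F-box protein that picks the substrates of a ubiquitin ligase. All 4 arrays are labelled as hearts after TAC, so no unloaded heart enters any comparison, and the labels used here give no strain, age or sex. Nothing in the labels states that the numbered hearts are separate animals, so the p-values measure only the spread between these samples, which comes from the 3 knockout arrays alone.

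Potassium channels let potassium leave the cell and so end the cardiac action potential and hold the resting potential. Voltage-gated pore subunits open on depolarization, inward rectifiers hold the membrane near rest, 2-pore-domain channels carry background current, and calcium- or sodium-activated channels link the membrane to internal ions. Auxiliary subunits make no pore but set how many channels reach the surface and how they gate. In the mouse ventricle the fast transient outward current dominates early repolarization, and lower expression of repolarizing channel genes is a known feature of pressure-overload hypertrophy.

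Fbxo32 was at 7.54 on the wild type array, against 5.65, 5.61 and 5.56 on knockouts 1, 2 and 3, lower on every array labelled as knockout; where its probes lie relative to the deletion was not examined. The median of the 14914 genes tested was 6.84 to 6.87 on every array. Xist, the transcript of the inactive X chromosome, was at 3.20 on knockout 3 and 4.13 on the wild type array, but at 9.18 and 9.52 on knockouts 1 and 2. Eif2s3y, a gene of the Y chromosome, was at 8.57 on the wild type array and 8.49 on knockout 3, but at 3.31 and 3.64 on knockouts 1 and 2. These are the patterns of male hearts for wild type and knockout 3, and of female hearts for knockouts 1 and 2. For knockouts 1 and 2, sex and genotype therefore cannot be told apart in any difference from wild type. Knockout 3 is the array that matches the wild type array in this respect. Its own value or difference is therefore given beside most means over the knockouts. The cardiomyocyte markers (Myh6, Tnnt2, Tnni3, Actn2, Ryr2 and Myl2) all passed the level, with a mean between 12.70 and 12.88 on every array. Macrophage markers were lower on the knockout arrays: 6 of 6 with a probe set were lower on every knockout array, against 24.6% of all genes tested. All 6 are compared with the same 1 wild type array, so they are not independent. The mean of the macrophage markers was 8.22 in the wild type heart against 6.80, 6.83 and 7.42. In RNA from whole tissue, fewer cells of a type and less RNA per cell cannot be told apart.

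No potassium channel gene passed the limma test of knockout against wild type. At an adjusted p under 0.05 the count was 0 of 72, against 1 gene (0.00671%) of all genes tested, and the smallest adjusted p among the members was 0.370. At 0.05 without adjustment limma gave 2 higher members, Kcnip2 and Kcnj2 (2.78%, against 1.68% of all genes), and 1 lower, Kcnn4 (1.39%, against 4.05%). These shares are small counts near the background and are no result about the family. They also include Kcnip2, which the rule named with its difference known.

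Direction was less even. In 30 of the 72 genes (41.7%) every knockout array lay above the wild type array, compared with 23.9% of all genes tested, and in 10 (13.9%) every knockout array lay below it, compared with 24.6%. The median log2 difference, knockout minus wild type, was 0.14 over the 72 genes and 0.00 over all genes tested. On single arrays the median of the 72 was 0.12, 0.09 and 0.12 for knockouts 1, 2 and 3, against 0.01, 0.00 and -0.01 over all genes. All 3 share the 1 wild type array, so their agreement is not independent. By role group, the medians for knockouts 1, 2 and 3 were 0.395, 0.195 and 0.09 in inward rectifiers. In 2-pore-domain channels they were 0.085, -0.05 and 0.16. Inward rectifiers were thus the higher group on knockouts 1 and 2 but the lower on knockout 3. This difference between groups was not tested. Leaving out Kcnip2, 29 of 71 lay above. These shares were not tested, since channel genes of one tissue do not vary independently. Of the 72, 69 are protein-coding and 3 are noncoding antisense transcripts in RefSeq (GRCm38.p6), and 7 had at least 1 array under 4.71. Kcnj9, Kcnj13 and Kcnc2 passed only through the mean of their knockout arrays and Kcna4 only through the wild type array, so these 4 had to differ; among the 65 genes at or above the level on every array, 27 lay above and 9 below. Among the 20 dim Kcn genes, 4 lay above and 5 below, with a median of 0.02.

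**Figure D1:**
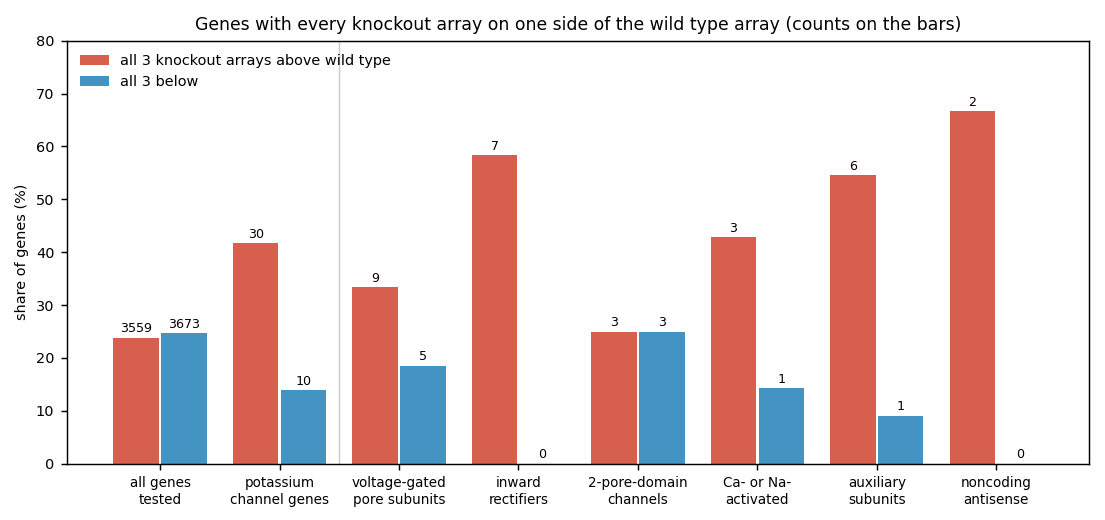
Share of genes (%, vertical axis) whose 3 knockout arrays all lay above (red) or all below (blue) the wild type array, for all 14914 genes tested, the 72 potassium channel genes and their role groups; the number on each bar is the count of genes. The potassium channel genes show 30 above and 10 below, and the inward rectifiers 7 above and 0 below, 2 of the 7 having passed the level only through their knockout mean.

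**Figure D2:**
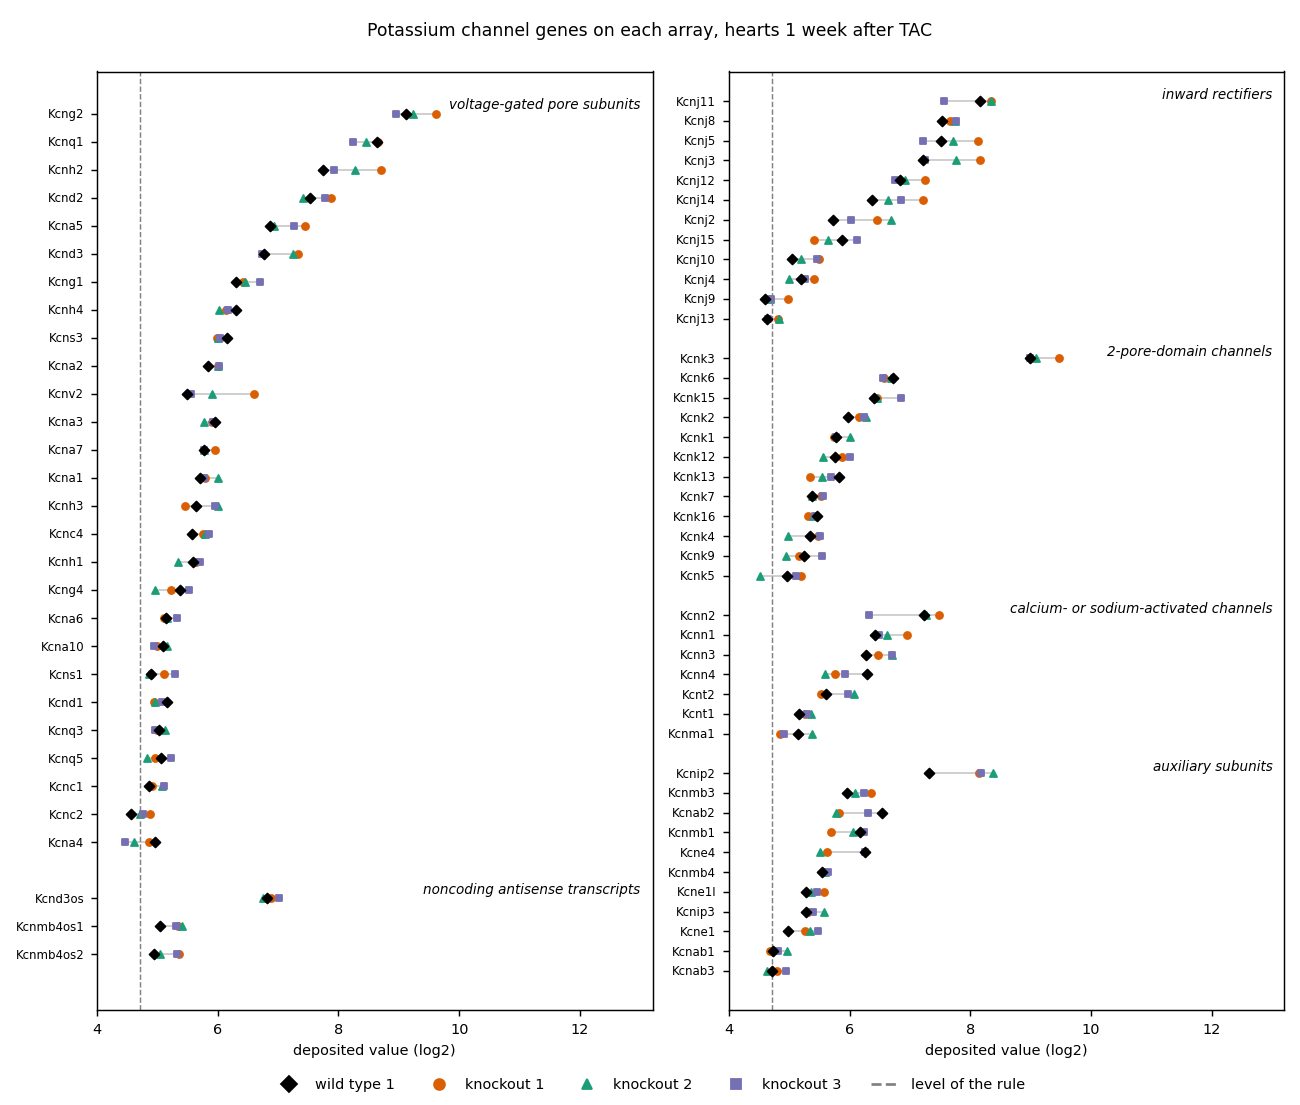
Deposited value (log2, horizontal axis) of all 72 genes on each of the 4 arrays, grouped by role, with the wild type array as a black diamond, knockouts 1, 2 and 3 as circle, triangle and square, and the level of 4.71 as a dashed line. For Kcnip2 the 3 knockout arrays lie together between 8.14 and 8.38 and apart from the wild type array at 7.31, whereas for most genes the wild type value lies among or close to the knockout values.

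A probe set's value depends on its probes as well as on the transcript, so values of different genes set no order of abundance, and only differences between arrays for the same gene are read below. Every fold change is knockout minus wild type on the log2 scale.

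The fast transient outward channel is built from pore subunits encoded by Kcnd2 and Kcnd3 and from KChIP2, the calcium-binding subunit encoded by Kcnip2, which brings them to the surface. Kcnip2 (probe set 10468113) read 7.31 on the wild type array, against 8.14, 8.38 and 8.17 on knockouts 1, 2 and 3. All 3 knockout values lay far above the wild type value and close to each other. The knockout mean was 8.23 ± 0.13 (SD, n = 3), 1.89-fold higher, a log2 difference of 0.92 (SE 0.19). In limma over all genes it was not called (adjusted p = 0.370), and since the gene was named for this difference the values stand as a description. On knockout 3 alone the difference was 0.86, and leaving out each knockout array in turn gave 0.845 to 0.965. Cardiomyocyte markers, measured on the same arrays, had a median difference of 0.08. Of these, Ryr2 and Myh6 lay above wild type on every knockout array, with mean differences of 0.42 and 0.14. The rest lay on both sides. The part of these markers in the Kcnip2 values was not tested.

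The pore subunits did not show the same separation. Kcnd2 read 7.53 in the wild type heart, against 7.88, 7.41 and 7.77 in the knockout hearts, so the wild type value lay inside their range (log2 fold change 0.16, SE 0.23). Kcnd3 read 6.76 against 7.33, 7.24 and 6.74, higher on knockouts 1 and 2 and level with wild type on knockout 3. Kcnd3os, a noncoding transcript that overlaps Kcnd3 on the opposite strand, lay at 6.81 against 6.89, 6.75 and 7.01. Kcnd1, the remaining pore subunit of this subfamily, was lower on all knockout arrays by small amounts (5.17 against 4.95, 4.97 and 5.08). Kcna4, the pore of the slow transient outward current, read 4.97 against 4.86, 4.61 and 4.47 at the edge of the level (log2 fold change -0.32, SE 0.21, limma adjusted p = 0.924). Of the other KChIP genes, Kcnip3 gave 5.28 against 5.31, 5.57 and 5.40, and Kcnip1 and Kcnip4 were dim, with means of 4.26 and 3.58. Within this complex, Kcnip2 had a knockout spread of 0.13 (SD) beside its difference of 0.92. Kcnd2 and Kcnd3 had spreads of 0.25 and 0.32 beside differences of 0.16 and 0.34. Since Kcnip2 was named for its difference, this contrast is a description and was not tested.

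The upstream sequences of the 3 members with an unadjusted p under 0.05 are shown because these genes had the smallest p in each direction. Each is the 250 bases before a RefSeq start on GRCm38.p6, read along the gene's own strand, with capitals marking the GC box GGGCGG and the CACCC box on either strand; the boxes can overlap. The windows are chr19:45816064-45816313 (minus strand) for Kcnip2, chr11:111065914-111066163 (plus) for Kcnj2 and chr7:24370013-24370262 (plus) for Kcnn4, and those of Kcnip2 and Kcnn4 lie inside the annotated extent of their own gene, downstream of another start.
Kcnip2: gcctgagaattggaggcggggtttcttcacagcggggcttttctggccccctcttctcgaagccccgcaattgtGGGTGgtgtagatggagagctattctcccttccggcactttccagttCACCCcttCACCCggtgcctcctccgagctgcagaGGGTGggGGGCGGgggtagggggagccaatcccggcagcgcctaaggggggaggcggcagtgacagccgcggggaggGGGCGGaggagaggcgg
Kcnj2: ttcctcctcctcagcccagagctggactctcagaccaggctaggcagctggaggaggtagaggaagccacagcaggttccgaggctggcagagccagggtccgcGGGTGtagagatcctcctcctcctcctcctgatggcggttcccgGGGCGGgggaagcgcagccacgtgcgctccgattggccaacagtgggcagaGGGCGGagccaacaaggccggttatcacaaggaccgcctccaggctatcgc
Kcnn4: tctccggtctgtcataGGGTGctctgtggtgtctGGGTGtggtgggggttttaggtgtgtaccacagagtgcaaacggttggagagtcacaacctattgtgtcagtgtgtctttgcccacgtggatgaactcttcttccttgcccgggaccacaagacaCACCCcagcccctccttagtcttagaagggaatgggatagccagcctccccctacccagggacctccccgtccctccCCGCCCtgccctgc
CACCC boxes, the kind of site bound by Krüppel-like factors, numbered 4 in the Kcnip2 window, 1 in that of Kcnj2 and 3 in that of Kcnn4. The GC box occurred 2 times, 2 times and 1 time. None of the 3 windows holds the TATA box TATAAA. RefSeq windows were found for 54 of the 72 genes (69 windows), and 75.4% of them hold a CACCC box against 52.0% of all 32851 windows, 46.4% hold a GC box against 32.7%, and 2.90% hold TATAAA against 12.4%. The E-box CANNTG was in 71.0% against 66.2%, and GATAA in 10.1% against 22.6%. The channel windows were also richer in G and C, with a median of 60.0% against 52.4%, and windows of 1 gene can overlap. A match of letters is a description and shows no binding.

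Among the inward rectifiers, 7 of 12 had all knockout arrays above the wild type array and 0 below, where 23.9% and 24.6% of all genes did. Kcnj9 and Kcnj13 are among the 7 and passed the level only through their knockout mean; of the 10 inward rectifiers at or above it on every array, 5 lay above and 0 below. Kcnj2, which with Kcnj12 encodes the channel of the resting potential in ventricular muscle, read 5.73 in the wild type heart, against 6.45, 6.69 and 6.02 in the knockout hearts. The knockout values did not overlap the wild type value but spread over 0.67 among themselves, with knockout 3 nearest to wild type. The fold change was 0.66 on the log2 scale (SE 0.27, 1.58-fold; limma adjusted p = 0.843), and 0.29 on knockout 3. Kcnj12 gave 6.84 against 7.25, 6.92 and 6.76, with the wild type value inside the knockout range. Kcnj14, a related rectifier, read 6.38 against 7.22, 6.64 and 6.86, with all knockouts higher and knockout 3 at 0.48 above wild type (log2 fold change 0.53, SE 0.25, limma adjusted p = 0.885).

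Kcnj3 and Kcnj5 encode the acetylcholine-activated channel of atrium and nodes. Kcnj3 read 7.21 in the wild type heart against 8.16, 7.76 and 7.25. Knockout 3 was within 0.04 of wild type, and knockouts 1 and 2 were higher by 0.95 and 0.55 (mean difference 0.51, SE 0.33, limma adjusted p = 0.924). Its partner Kcnj5 was ordered in the same way among the knockouts, at 8.12, 7.72 and 7.22, but the wild type value of 7.51 lay within them. Without knockout 1 the fold change of Kcnj5 was -0.04. The atrial markers Myl7, Myl4, Sln, Bmp10 and Nppa had a mean of 8.20 in the wild type heart, against 7.86, 7.43 and 7.88 in the knockout hearts. Bmp10 was dim on all 4 arrays, with 3.50 or less on each knockout. The mean joins markers that did not move together. Nppa read 13.09 against 11.62, 11.94 and 13.23, and Myl7 9.01 against 9.12, 7.86 and 8.10. Only Myl4 and Bmp10 were lower on every knockout array. The part of the atrial markers in the Kcnj3 values was not tested.

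The pore subunits of the ATP-sensitive channel, Kcnj11 and Kcnj8, showed small differences. Kcnj11, the pore of ventricular muscle, gave 8.16 against 8.34, 8.35 and 7.56, with knockout 3 alone below wild type, so that the fold change of -0.08 turned to 0.185 without it. Kcnj8, found in vascular smooth muscle and pericytes, was higher on all knockouts by 0.13 to 0.23 (7.53 against 7.66, 7.75 and 7.76; log2 fold change 0.19, SE 0.17). Of 7 smooth muscle and pericyte markers, 4 were lower than wild type in all knockouts and 1 was higher, against 24.6% and 23.9% of all genes. Acta2, Tagln, Cnn1 and Cspg4 were the lower ones. Rgs5 was the higher one, by 0.08, 0.25 and 0.50 on knockouts 1, 2 and 3. Myh11 and Pdgfrb lay on both sides. The part of these markers in the Kcnj8 values was not tested. The regulatory sulfonylurea receptor genes were higher on all knockout arrays: Abcc9 read 9.57 against 10.40, 10.01 and 9.75, and Abcc8 7.25 against 8.14, 7.75 and 7.55. Both were highest on knockout 1 and nearest to wild type on knockout 3, and neither passed limma (adjusted p = 0.923 and 0.880). Of the remaining inward rectifiers, Kcnj10, Kcnj9 and Kcnj13 were higher on all knockout arrays, by mean differences of 0.33, 0.19 and 0.14 and by 0.41, 0.10 and 0.02 on knockout 3, and Kcnj4 and Kcnj15 lay on both sides.

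**Figure D3:**
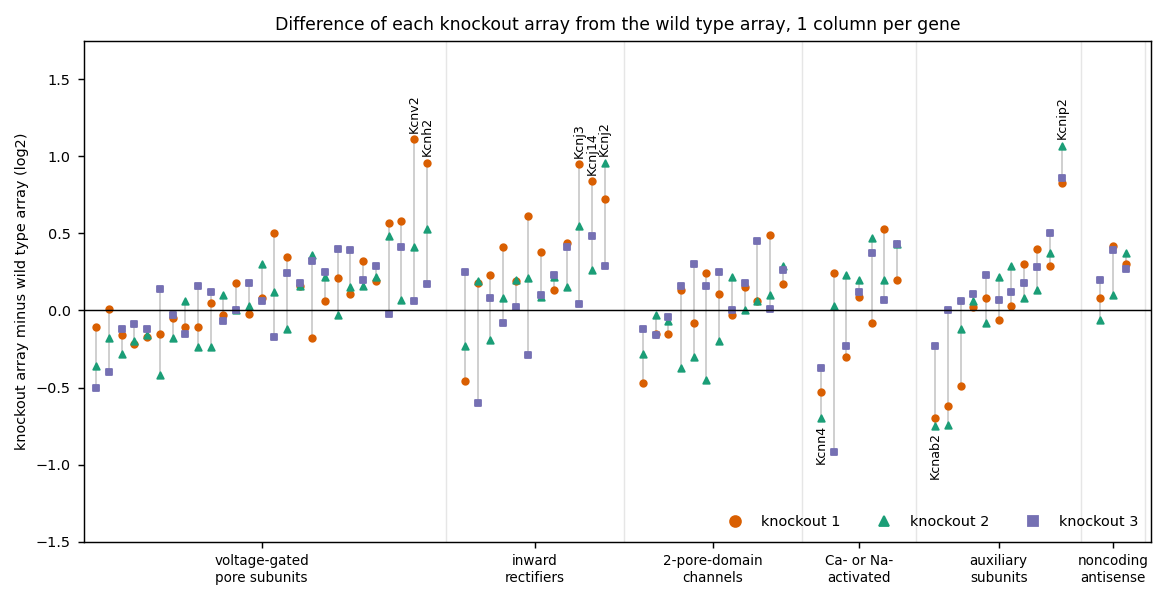
Difference of each knockout array from the wild type array (log2, vertical axis) for each of the 72 genes, 1 column per gene, ordered within each role group by the mean difference; circle, triangle and square are knockouts 1, 2 and 3, and the black line at 0 is the wild type level. The 8 named genes are those with all knockouts on one side and a mean difference of at least 0.4 in size, and only in Kcnip2 do all 3 points lie at 0.83 or more.

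Of the 27 voltage-gated pore subunits, 9 were higher than wild type in all knockouts and 5 were lower in all, with a median of 0.15. Over all genes tested the shares were 23.9% higher and 24.6% lower. Kcnh2, the pore of the rapid delayed rectifier, read 7.75 in the wild type heart against 8.71, 8.28 and 7.92. All knockouts were higher, but by 0.96 on knockout 1 and by 0.17 on knockout 3, and the fold change of 0.55 (SE 0.30) was not called (limma adjusted p = 0.923). Kcnv2, a silent subunit that forms channels only with others, had the same order, 5.50 against 6.61, 5.91 and 5.56 (log2 fold change 0.53, SE 0.37), with knockout 3 only 0.06 above wild type. For both genes the knockout arrays differed from each other by more than the mean difference from wild type.

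Kcnq1 and Kcne1 encode the pore and auxiliary subunit of the slow delayed rectifier. Kcnq1 read 8.64 against 8.65, 8.46 and 8.24, the wild type value lying at the upper end of the knockout range. Kcne1 was higher on all knockout arrays, 4.98 against 5.27, 5.35 and 5.48, with a log2 difference of 0.39 (SE 0.18, limma adjusted p = 0.885) and knockout 3 the highest. Kcna5, which carries a large sustained current in mouse ventricle, read 6.86 against 7.44, 6.93 and 7.27 (log2 fold change 0.35, SE 0.23), above wild type throughout but by only 0.07 on knockout 2. Kcng2, a silent subunit, gave 9.12 against 9.62, 9.24 and 8.95, on both sides of wild type.

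The remaining pore genes differed from wild type by small amounts. Kcna2, Kcna1, Kcnc4, Kcnc1, Kcnc2 and Kcng1 lay above wild type on all knockout arrays with mean differences of 0.15 to 0.23 and 0.06 to 0.39 on knockout 3. Kcnh4, Kcns3 and Kcna3, the last a channel of T lymphocytes, lay below on all of them, with -0.19, -0.15 and -0.09 in the mean and -0.12, -0.12 and -0.03 on knockout 3. The knockouts lay closest together for Kcna2, at 6.01 ± 0.01 (SD, n = 3) against 5.84, though its second, dimmer probe set went the other way, at 4.89 in wild type against 4.85, 4.81 and 4.70. None of these differences came near the threshold (limma adjusted p of 0.945 or more).

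The 2-pore-domain channels were near the background: 3 of 12 lay above and 3 below throughout, where 23.9% and 24.6% of all genes did. Their median was 0.02, against 0.00 over all genes, and no mean difference exceeded 0.29 in size. Kcnk3, an acid-sensitive background channel of the heart, read 8.98 in the wild type heart, against 9.47, 9.08 and 8.99 in the knockout hearts. Only knockout 1 stood clear of wild type. Kcnk2, a stretch-activated channel, was higher on all 3, 5.98 against 6.15, 6.27 and 6.24, with a knockout SD of 0.06 and a log2 difference of 0.24 (SE 0.17, limma adjusted p = 0.945). Kcnk6 gave 6.72 against 6.57, 6.69 and 6.56, Kcnk15 6.40 against 6.46, 6.46 and 6.85, and Kcnk13 was the lowest of the group relative to wild type, 5.82 against 5.35, 5.54 and 5.70.

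The small-conductance calcium-activated channels Kcnn1, Kcnn2 and Kcnn3 and the intermediate-conductance channel Kcnn4 went different ways. Kcnn4, a channel of leukocytes, fibroblasts and other non-excitable cells, read 6.29 in the wild type heart, against 5.76, 5.59 and 5.92 in the knockout hearts. All knockout values lay below wild type by at least 0.37, and the log2 fold change was -0.53 (SE 0.20, limma unadjusted p = 0.030, adjusted p = 0.777), or -0.615 to -0.45 leaving out each knockout. The macrophage markers were lower on the same arrays, with median differences of -1.35, -1.44 and -0.98 on knockouts 1, 2 and 3, and fibroblast markers had -0.92, -0.42 and 0.62. The fibroblast markers did not move together: Dcn and Lum lay above wild type on every knockout array and Pdgfra below. Col1a1, Col3a1 and Postn were lower on knockouts 1 and 2 and higher on knockout 3. The part of either marker list in the Kcnn4 values was not tested. Kcnn3 lay above wild type on all knockouts (6.27 against 6.47, 6.70 and 6.70), as did Kcnn1 (6.42 against 6.95, 6.62 and 6.49). Kcnn2 stood out for a single array: it lay at 7.24 in wild type, 7.48 in knockout 1 and 7.27 in knockout 2, but at 6.32 in knockout 3, which turned its fold change from 0.135 without that array to -0.22 with it. Kcnma1, the large-conductance channel of smooth muscle, gave 5.15 against 4.85, 5.38 and 4.92, and its smooth muscle partner Kcnmb1 6.18 against 5.69, 6.06 and 6.24, both on either side of wild type. The sodium-activated channel gene Kcnt1 was 0.14 higher (0.12 on knockout 3) and lay above throughout, and Kcnt2 lay on both sides.

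Among the 11 auxiliary subunits 6 lay above and 1 below, where 23.9% and 24.6% of all genes did. The 1 below was Kcnab2, the beta subunit of voltage-gated channels with an aldo-keto reductase fold, at 6.53 in the wild type heart against 5.83, 5.78 and 6.30. Knockouts 1 and 2 agreed closely and knockout 3 lay between them and wild type, with a log2 difference of -0.56 (SE 0.24, limma adjusted p = 0.876) and -0.23 on knockout 3. Kcne4, an inhibitory partner of Kcnq1, had the same form without separation, 6.25 against 5.63, 5.51 and 6.25, knockout 3 being equal to wild type. Kcnmb3, a beta subunit of the large-conductance channel, was higher on all knockouts, 5.96 against 6.36, 6.09 and 6.24 (log2 fold change 0.27, SE 0.19). Kcnmb4, Kcne1l and Kcnip3 were also higher, by 0.06, 0.19 and 0.15 in the mean and 0.11, 0.18 and 0.12 on knockout 3, and Kcnab1 and Kcnab3 lay on both sides near the dim level. Of the noncoding transcripts Kcnmb4os1 (5.04 against 5.34, 5.41 and 5.31) and Kcnmb4os2 (4.94 against 5.36, 5.04 and 5.33) lay above wild type throughout, while the protein-coding Kcnmb4 differed by 0.06; probe sets of overlapping genes can share signal.

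**Figure D4:**
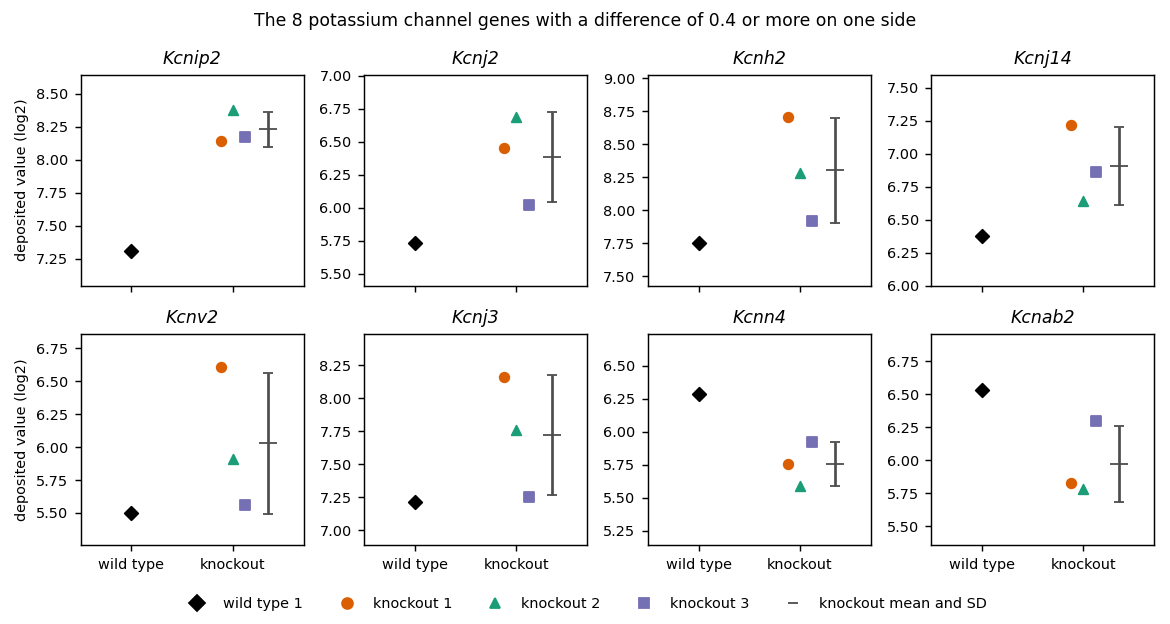
Deposited value (log2, vertical axis, each panel spanning the same log2 distance) on the wild type array and on the 3 knockout arrays for the 8 genes with all knockouts on one side and a mean difference of at least 0.4 in size; the grey bar is the knockout mean ± SD (n = 3). Knockout 3 is the array nearest to wild type in Kcnj2, Kcnh2, Kcnv2, Kcnj3, Kcnn4 and Kcnab2, but not in Kcnip2 or Kcnj14.

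In all, 8 members combined a one-sided order with a difference of 0.4 or more: Kcnip2, Kcnj2, Kcnh2, Kcnj14, Kcnv2 and Kcnj3 higher, and Kcnn4 and Kcnab2 lower. That is 8.33% higher and 2.78% lower, against 3.91% and 6.71% of all genes tested. The rule named Kcnip2 with its difference known, and without it 5 of 71 were higher and 2 lower. On knockout 3 alone Kcnip2 (0.86) and Kcnj14 (0.48) kept a difference of 0.4 or more, Kcnn4 stood at -0.37, and the other 5 were within 0.3 of wild type. The members at the edge of the level were Kcnj13, Kcnc2 and Kcna4 just inside (each with a mean of 4.73) and Kcnk10, Kcnrg and Kcnv1 just outside (4.66, 4.66 and 4.63).

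The genes that work with these channels were read in separate lists, and the mix of directions varied between the lists. For every list below, the shares over all genes tested were 23.9% above and 24.6% below. Of 16 tested partners and regulators, 7 lay above and 1 below on every knockout array (median 0.15) and 0 passed limma. Klf15, a Krüppel-like factor known to drive Kcnip2 in mouse heart, read 8.04 against 8.89, 8.48 and 8.07. Irx5, a known repressor of Kcnd2, lay at 7.04 against 7.57, 6.95 and 6.51. The single lower partner was Cav3, the muscle caveolin, at 8.24 against 7.53, 7.98 and 7.52 (log2 fold change -0.56, SE 0.23, limma unadjusted p = 0.047, adjusted p = 0.853). Of 14 tested sodium, calcium, pacemaker and gap junction channel genes, 7 lay above and 5 below (median 0.07), and Cacna1g, the pore of a T-type calcium channel, read 6.36 against 6.88, 6.93 and 6.78 (log2 fold change 0.50, SE 0.18, limma unadjusted p = 0.024, adjusted p = 0.728). Of 7 tested pump and cotransport genes, 2 lay above and 2 below (median -0.09).

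The limma test over all genes had 2 residual degrees of freedom and took the spread of the lone wild type array from the knockouts. With 1 array against 3, the smallest p that an exact permutation test allows is 0.25, so a difference that misses the threshold here is not shown to be absent.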

How the data were processed

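Biotin-labelled cRNA from 4 hearts was hybridised to Affymetrix Mouse Gene ST arrays, per the labels. The authors deposited log2 values made with Affymetrix Expression Console and RMA, per the submitters' processing notes. RMA equalises the arrays' distributions, which hides any shift common to most genes, and it shrinks differences between weakly hybridised genes. Tool versions are not given in the sources consulted, and no scanner intensity was used.

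Of 35556 probe sets 21789 had 1 gene symbol, 1621 had several and were not used, and 12146 were unlisted. Where a gene had several probe sets the brightest was used. Genes with a mean under the 25th percentile (4.71) were left out, leaving 14914. Knockout and wild type were compared by a two-sided moderated test (lmFit, eBayes) of limma 3.58.1 under R 4.3.3, with Benjamini-Hochberg adjustment over all genes, a threshold of 0.05 and 5.04 prior degrees of freedom; the step was tested on simulated data. The number of arrays limits the precision. All 72 members matched RefSeq, whose GRCm38.p6 tables gave biotypes and upstream sequences; protein sequences were not used.

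Members, role groups, partner lists and cell type markers were chosen with earlier results of these data known. Named members were the 3 of highest mean in each role group, those with all knockouts on one side and a difference of at least 0.4, genes of the main repolarizing currents, and those at the edge of the level; other members were named after their values were seen. The cell type marker lists gave these median differences: cardiomyocyte 0.08, atrial -0.43, smooth muscle and pericyte -0.27, endothelium 0.24, fibroblast -0.34, macrophage -1.26, neuron and Schwann cell 0.10, skeletal muscle 0.06 and adipocyte 0.23. The alternatives tried were centring, renewed quantile normalization, 2 other filters, averaged probe sets, other variance models, an Xist covariate and leaving out each knockout array.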

Additional observations from a re-analysis of the deposited data

How the results depend on the processing

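No potassium channel gene and no partner gene passed the limma threshold under any alternative run. The number of all genes that passed, 1, became 0 with renewed quantile normalization, without a filter, with Xist as a covariate (which leaves knockout 3 against wild type) and without any 1 knockout array, 3 with the higher filter, 7 with a variance trend and 9 with robust variances. The number of the 72 members at an unadjusted p under 0.05 moved when 1 knockout array was left out. The share over all genes was not computed for those runs, so these counts are not read. Without knockout 3, both remaining knockout arrays have the female pattern and the wild type array the male pattern. The median difference of the 72 members, 0.14, became 0.17 with centred arrays and 0.077 over all 92 Kcn genes. It was 0.0875 to 0.15 leaving out 1 knockout array. The 30 members above and 10 below wild type became 34 and 8 with centred arrays (28.8% and 21.2% of all genes). Of the 43 that pass the higher filter, 19 lay above and 7 below (23.7% and 25.5% of all genes). With 1 knockout array fewer, where fewer arrays must agree, 34 to 40 lay above and 11 to 16 below. Of all genes, 29.6% to 35.6% then lay above and 31.8% to 35.1% below. Among 30 named members other than Kcnip2, 24 kept their sign throughout. With Xist as a covariate the sign turned for Kcng2 (-0.17), Kcnj5 (-0.29), Kcnd3 (-0.02) and Kcnj12 (-0.08). Leaving out 1 knockout array gave -0.025 to 0.31 for Kcng2, -0.04 to 0.41 for Kcnj5, -0.21 to 0.185 for Kcnj11 and -0.445 to 0.135 for Kcnn2. The cause of these turns was not tested. No paired analysis was possible because the genotypes share only replicate number 1. Arrays have no read depth, and their number limits the precision.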
